A study of Mus musculus with 2 samples.

Results

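The genes described here encode 9 transcription factors of the Sertoli cell lineage and of the somatic cells that surround it in the testis, namely *Sox9*, *Sox8*, *Wt1*, *Gata4*, *Gata1*, *Gata6*, *Nr5a1*, *Tcf21* and *Nr2f2*. They were chosen by name and not by their measured values, and they are 9 of the 32285 genes counted. The data are single-cell RNA-seq of dissociated testes at postnatal day 7 (PD7), with 1 library from a control mouse and 1 library from a *Brca1* vKO mouse. *Brca1* vKO mice (*Brca1* f/- *Vasa-Cre*) carry a floxed and a deleted *Brca1* allele and a Cre driven by *Vasa*, a germ cell gene, so that *Brca1* is lost in germ cells, whereas the Cre is not meant to act in Sertoli cells and the other somatic cells. The control mouse is given only as a control in the sample labels. Each library holds the cells of the testes of one genotype. The authors loaded more *Brca1* vKO cells, out of concern for too few germ cells from the smaller testes, and more were recovered. No difference between the libraries has a replicate check.

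Sertoli cells are the supporting cells of the seminiferous tubule, and their identity is set in the fetal gonad when SRY switches on SOX9. SOX9 and the related SOX8 keep the male programme, WT1 maintains Sertoli identity and tubule structure, and the zinc finger proteins GATA4, GATA6 and GATA1 act with the nuclear receptor NR5A1 (also called SF1) on genes such as *Amh* and *Inha*. Leydig, peritubular myoid and interstitial stromal cells arise in the same gonad, share some of these factors, and carry TCF21 and the nuclear receptor NR2F2 (COUP-TFII), which are known from the mesenchyme of many organs.

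After filtering, 5077 control cells and 8712 *Brca1* vKO cells remained, with medians of 16917 and 12970.5 unique molecular identifiers (UMIs, counted molecules) per cell. Clusters were named from marker genes with the 9 factors left out of the clustering. Of the control and *Brca1* vKO cells, 2014 and 4160 were Sertoli-like, 855 and 1982 stromal-like, 556 and 1414 myoid-like, 47 and 112 Leydig-like, and 670 and 220 germ cell-like, so germ cell-like cells were the scarcer ones in the *Brca1* vKO library. The Sertoli name was given from 8 markers (*Clu*, *Amhr2*, *Aard*, *Rhox8*, *Hsd17b1*, *Cldn11*, *Ctsl* and *Defb36*), so their levels describe the class and are no check of its name. *Clu* stood at 2487 and 2628 CPM in Sertoli-like cells against 33.9 and 68.1 in stromal-like cells. The 4 clusters that stayed unnamed held 809 control cells (15.9%) and 578 *Brca1* vKO cells (6.63%), and 16 cell barcodes occurred in both libraries. Cells called in S or G2/M phase are called cycling here, and they made up 37.4% of control and 40.5% of *Brca1* vKO Sertoli-like cells. Only 7 germ cell-like cells of each library were called non-cycling, so germ cells were not split. *Brca1* itself stood at 72.6 CPM in control and 45.1 in *Brca1* vKO germ cell-like cells, a ratio of 0.621 (0.557 to 0.691). The paper reports from staining that BRCA1 protein was already lost in *Brca1* vKO germ cells shortly after birth. The values here are RNA counts and do not measure that protein or how complete the deletion was. *Brca1* was also lower in some somatic cells, with a ratio of 0.761 (0.712 to 0.813) in cycling Sertoli-like and 0.612 (0.521 to 0.720) in cycling stromal-like cells. In non-cycling Sertoli-like cells it was higher, at 5.93 CPM in control and 7.34 in *Brca1* vKO, a ratio of 1.24 (lower 95% limit 1.03). Somatic cells of the *Brca1* vKO mouse carry the deleted allele too. These values do not tell the germ cell deletion apart from that allele or from a difference between the libraries. All levels are in CPM, the UMIs of a gene per 1000000 UMIs summed over the cells of a class and library, and all ranges in parentheses are exact 95% intervals that cover counting error only, not the spread between mice.

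The promoter windows of 4 of the 9 factors are shown because GATA factors and TCF21 are themselves sequence-specific regulators, and because *Sox8* and *Gata1* were highest in Sertoli-like cells whereas *Tcf21* and *Nr2f2* were highest in the cells around them. Each window holds the 250 bases before a RefSeq start site (GRCm38.p6, the mm10 assembly), printed 5′ to 3′ on the minus strand, which all 4 genes use. Capitals mark a GATA motif (AGATAA or TGATAA, or either with G as its last base, both strands) or an E-box (CANNTG, both strands, the motif of bHLH factors such as TCF21). The windows are chr17:25570687-25570936 for *Sox8*, chrX:7967911-7968160 for *Gata1*, chr10:22820144-22820393 for *Tcf21* and chr7:70366747-70366996 for *Nr2f2*.
*Sox8*: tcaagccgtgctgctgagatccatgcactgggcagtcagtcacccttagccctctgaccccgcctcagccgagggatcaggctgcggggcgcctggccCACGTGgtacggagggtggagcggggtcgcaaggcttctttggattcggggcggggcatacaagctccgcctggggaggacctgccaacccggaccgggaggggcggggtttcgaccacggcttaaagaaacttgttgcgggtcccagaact
*Gata1*: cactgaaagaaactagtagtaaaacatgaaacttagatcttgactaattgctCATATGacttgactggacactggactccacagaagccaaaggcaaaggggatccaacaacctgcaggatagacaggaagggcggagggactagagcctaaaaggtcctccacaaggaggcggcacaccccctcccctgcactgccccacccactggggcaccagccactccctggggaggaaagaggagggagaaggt
*Tcf21*: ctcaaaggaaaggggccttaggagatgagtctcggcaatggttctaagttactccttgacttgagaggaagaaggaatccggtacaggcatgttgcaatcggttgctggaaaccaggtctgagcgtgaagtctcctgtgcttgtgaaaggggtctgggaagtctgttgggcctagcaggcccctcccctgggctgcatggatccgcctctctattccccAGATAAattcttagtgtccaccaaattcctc
*Nr2f2*: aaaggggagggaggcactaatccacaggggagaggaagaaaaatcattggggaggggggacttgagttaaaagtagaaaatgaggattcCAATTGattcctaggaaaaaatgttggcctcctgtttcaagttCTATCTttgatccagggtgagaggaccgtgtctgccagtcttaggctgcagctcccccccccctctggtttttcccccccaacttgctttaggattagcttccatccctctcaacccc

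The *Sox8* and *Gata1* windows held an E-box and no GATA motif, the *Tcf21* window a GATA motif 31 bases before the start site, and the *Nr2f2* window both. Of 32851 promoter windows of this length, 26.5% held a GATA motif and 66.2% an E-box, so neither is rare. The *Gata1* start site in this table lies 10161 bases inside the annotated gene. That of *Tcf21* lies 31 bases inside, so the *Tcf21* motif falls within the annotated gene. A match is a stretch of letters and not a bound site. *Sox9*, *Wt1*, *Gata4* and *Nr5a1* had no entry in the promoter table. Windows on chromosome 18, where *Gata6* lies, were left out, so *Gata6* was not looked at here.

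*Sox9*, *Sox8* and *Wt1* marked Sertoli-like cells in both libraries. Here a gene is called Sertoli-high when its level in Sertoli-like cells was at least 4-fold that in each of stromal-like, myoid-like, Leydig-like and germ cell-like cells, in both libraries. That rule took in 3 of the 9 factors, against a background of 1.81% of the 16351 genes with at least 50 UMIs in each library. The count was 1 (*Wt1*) when each cell took the class of its highest marker score and 5 at 3-fold.

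*Sox9* (chr11:112782224-112787760, plus strand, mm10) encodes the SRY-box factor that sets Sertoli fate. It stood at 378 CPM (373 to 383) in control and 325 (321 to 328) in *Brca1* vKO Sertoli-like cells. The next levels were 36.9 and 40.6 in stromal-like, 43.5 and 55.5 in myoid-like, 43.2 and 13.7 in Leydig-like, and 21.9 and 21.7 in germ cell-like cells. Sertoli-like cells thus stood clear of these 4 classes, with the smallest gap of 5.84-fold over *Brca1* vKO myoid-like cells. Pericyte-like cells, outside the rule, had 20.7 and 67.3 (49.1 to 90.0), so the gap over the *Brca1* vKO ones was 4.82-fold. Of the 45 *Sox9* UMIs in the *Brca1* vKO pericyte-like cells, 39 lay in 5 of the 69 cells. The control Leydig-like value rested on few cells, since 41 of its 47 UMIs came from 5 of the 47 cells. In the order of *Sox9* levels, control myoid-like, Leydig-like and stromal-like cells followed each other with overlapping intervals.

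*Wt1* (chr2:105126529-105173616, plus strand) encodes a zinc finger factor of the fetal gonad and kidney, and it had the widest margin of the 3 over those 4 classes. Its level was 415 (410 to 421) in control and 371 (367 to 375) in *Brca1* vKO Sertoli-like cells. It was 7.97 and 10.1 in stromal-like, 8.15 and 8.38 in myoid-like, 18.4 and 6.44 in Leydig-like, and 25.2 and 26.9 in germ cell-like cells. The smallest gap was 13.8-fold, over *Brca1* vKO germ cell-like cells.

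*Wt1* was not restricted to the Sertoli-like class, because endothelial-like cells also carried it. Their level was 283 (249 to 320) in control and 251 (224 to 280) in *Brca1* vKO cells, from 250 UMIs in 27 cells and 315 UMIs in 36 cells. The UMIs lay in 21 of the 27 and 30 of the 36 cells, with 64.0% of the control and 45.1% of the *Brca1* vKO UMIs in the 5 richest cells, and after thinning 56.0% and 32.4% of cells had one. The ratio of endothelial-like to Sertoli-like levels was 0.682 and 0.677 for *Wt1*, whereas the 8 Sertoli markers had ratios of 0.0307 to 0.0721 in control and 0.0463 to 0.101 in *Brca1* vKO. Endothelial-like cells were not among the 4 classes of the Sertoli-high rule.

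*Sox8* (chr17:25565892-25570686, minus strand) encodes a close relative of SOX9 with overlapping function. It stood at 51.8 (49.9 to 53.7) in control and 55.6 (54.2 to 57.1) in *Brca1* vKO Sertoli-like cells. Its other levels were 10.6 and 9.60 in myoid-like, 3.63 and 3.83 in stromal-like, 5.51 and 3.62 in Leydig-like, and 3.48 and 4.72 in germ cell-like cells. Myoid-like cells came second in both libraries, and the smallest gap was 4.88-fold, over control myoid-like cells. An antisense gene, *2810468N07Rik*, overlaps *Sox8*, as other antisense genes overlap *Gata6*, *Nr5a1*, *Tcf21* and *Nr2f2*, and the strand setting of the counting is not given in the sources used here.

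Shares of cells with a UMI depend on depth, so cells were also compared at equal depth. With each cell thinned to 2000 UMIs, 48.6% of control and 44.7% of *Brca1* vKO Sertoli-like cells had a *Sox9* UMI, against 96.7% and 95.8% before thinning. For *Wt1* the thinned shares were 50.4% and 45.8%, against 97.2% and 94.9% before. In thinned germ cell-like cells, which should lack both factors and were deeper before thinning (medians of 46138 and 37374 UMIs against 18707.5 and 15613.5), the shares were 4.48% and 2.74% for *Sox9* and 5.07% and 3.65% for *Wt1*. *Sox8* was seen in 9.56% and 10.1% of thinned Sertoli-like cells, against 60.0% and 59.9% before. The share of Sertoli-like cells that carry each factor is therefore not given by either number.

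**Figure D1:**
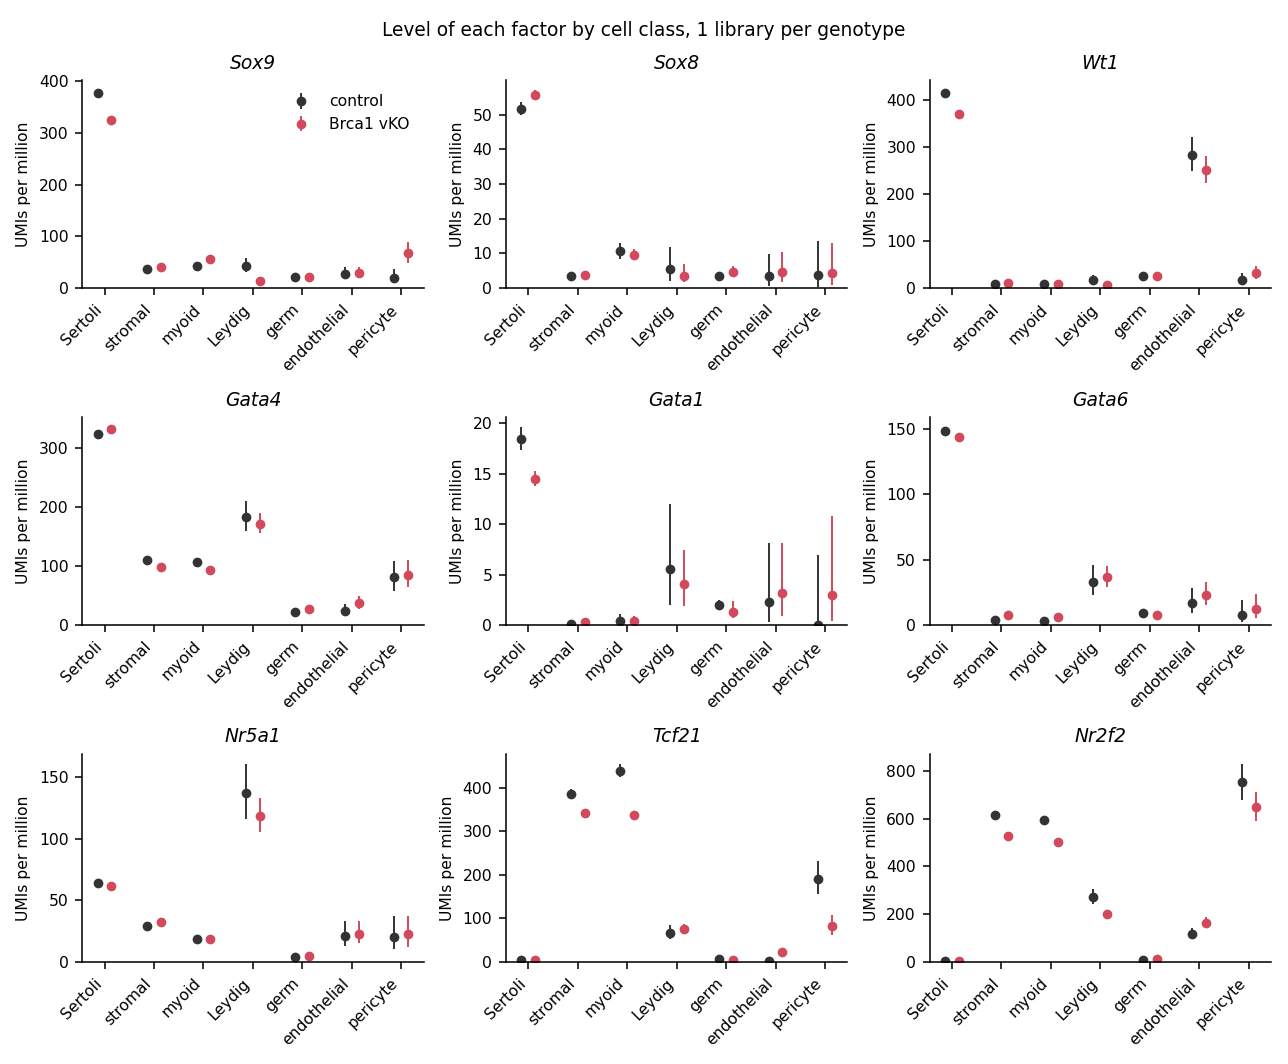
Level of each of the 9 factors (CPM, linear axis) in the cell classes of the control and the *Brca1* vKO library, with bars for the exact 95% Poisson interval. *Sox9*, *Sox8* and *Wt1* were highest in Sertoli-like cells by over 4-fold against the 4 classes of the rule, *Nr5a1* was highest in Leydig-like cells, and *Tcf21* and *Nr2f2* were lowest or near lowest in Sertoli-like cells.

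*Gata1* and *Gata6* were close to the rule but missed it in Leydig-like cells, and for *Gata6* the miss was lost at a mitochondrial limit of 5%, where its lowest fold was 10.5. *Gata1* (chrX:7959260-7978071, minus strand), known from erythroid cells and from Sertoli cells after birth, was a scarce transcript. It had 997 UMIs in control and 1477 in *Brca1* vKO Sertoli-like cells, or 18.4 (17.3 to 19.6) and 14.5 (13.8 to 15.3) CPM. Only 2 and 9 UMIs lay in stromal-like cells and 3 and 6 in myoid-like cells. Leydig-like cells had 6 and 10 UMIs, or 5.51 (2.02 to 12.0) and 4.03 (1.93 to 7.41) CPM, which put the smallest gap at 3.34-fold.

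*Gata6*, a GATA4 relative with overlapping roles in gonadal somatic cells, stood at 148 (145 to 151) in control and 144 (142 to 146) in *Brca1* vKO Sertoli-like cells. Its levels in stromal-like cells were 3.98 and 7.43 and in myoid-like cells 3.23 and 6.55. Leydig-like cells had 33.1 (23.2 to 45.8) and 36.6 (29.5 to 45), so the fold was 4.48 in control and 3.93 in *Brca1* vKO. The Leydig-like UMIs were concentrated, with 35 of 36 in 5 control cells and 69 of 91 in 5 *Brca1* vKO cells. The 5 control cells also held 25 *Sox9* and 19 *Wt1* UMIs and 5061 CPM of Sertoli markers, against 1279 in the other 42 Leydig-like cells. Leydig markers stood at 7471 CPM in these 5 control cells against 6047 in the other 42. The 5 *Brca1* vKO cells held 0 *Sox9* and 0 *Wt1* UMIs. Their Sertoli markers stood at 3689 CPM against 1309 in the other 107, and their Leydig markers at 16822 against 6793. These cells were looked at after the values were seen. When Leydig-like cells were left out of the rule, an alternative added after seeing the data, 5 factors were Sertoli-high, *Gata1* and *Gata6* among them, against 3.46% of 16295 genes.

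*Gata4* and *Nr5a1* were shared by Sertoli-like cells and the interstitium. *Gata4* (chr14:63198922-63271692, minus strand), needed for the gonad to form, stood at 323 (318 to 327) in control and 332 (328 to 335) in *Brca1* vKO Sertoli-like cells. Leydig-like cells followed at 183 and 172, stromal-like at 110.5 and 98.7, myoid-like at 106 and 93.8 and pericyte-like at 80.8 and 85.2, and germ cell-like cells had 21.9 and 26.5. Stromal-like and myoid-like intervals overlapped in both libraries, while Leydig-like cells stood apart from both. In thinned stromal-like cells 18.2% and 18.3% had a *Gata4* UMI (73.0% and 63.1% before thinning), against 43.3% and 42.4% of thinned Sertoli-like cells (96.4% and 95.8% before).

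*Nr5a1* (chr2:38692656-38714542, minus strand), which drives steroid-producing genes, was highest in Leydig-like cells, at 137 (116 to 161) in control and 119 (106 to 133) in *Brca1* vKO. Sertoli-like cells had 63.9 and 61.9, stromal-like 29.2 and 32.3, myoid-like 18.6 and 18.3 and germ cell-like cells 4.06 and 5.28. Among these 5 classes the order was the same in both libraries, and the Leydig-like interval lay above that of Sertoli-like cells. Levels of different genes are not set against each other here, since counting at 1 end of the transcript gives no per-length scale.

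Low levels outside Sertoli-like cells were read against the same ratio of the 8 Sertoli marker genes, as a reference within each library. In stromal-like cells the markers stood at 0.0136 to 0.137 of their Sertoli-like level in control (median 0.0192) and at 0.0259 to 0.135 in *Brca1* vKO (median 0.0357). *Wt1*, at 0.0192 and 0.0273, lay within that range. *Gata4*, at 0.343 and 0.297, and *Nr5a1*, at 0.456 and 0.522, lay above all 8 markers in both libraries. *Sox9*, at 0.0976 and 0.125, lay above 7 of the 8, with a UMI in 222 of 855 and 521 of 1982 stromal-like cells and the 5 richest cells holding 17.4% and 7.90% of its UMIs.

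In myoid-like cells the Sertoli markers ranged from 0.0128 to 0.120 of their Sertoli-like level in control (median 0.0175). In *Brca1* vKO they ranged from 0.0237 to 0.116 (median 0.0335), and *Ctsl* was highest in both libraries. *Sox8* lay above all 8 in both, at 0.205 and 0.173, from 82 and 142 UMIs. *Sox9* lay within the range at 0.115 in control, where only *Ctsl* was higher, and above the range at 0.171 in *Brca1* vKO. In germ cell-like cells the markers stood at 0.0516 to 0.0959 and 0.0490 to 0.0832 of their Sertoli-like level. The 7 factors other than *Tcf21* and *Nr2f2* lay between 0.0554 and 0.108 there, close to the markers. *Gata1* was above all 8 in both libraries, but its interval (0.0824 to 0.138 in control) reached into the range. In Leydig-like cells the markers ranged from 0.0332 to 0.386 in control (median 0.102). In *Brca1* vKO they ranged from 0.0345 to 0.251 (median 0.0651), with *Clu* highest in both. *Gata1* and *Gata6* lay within that range in control, where only *Clu* was higher, and slightly above the range in *Brca1* vKO. The source of these low levels was not tested.

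**Figure D2:**
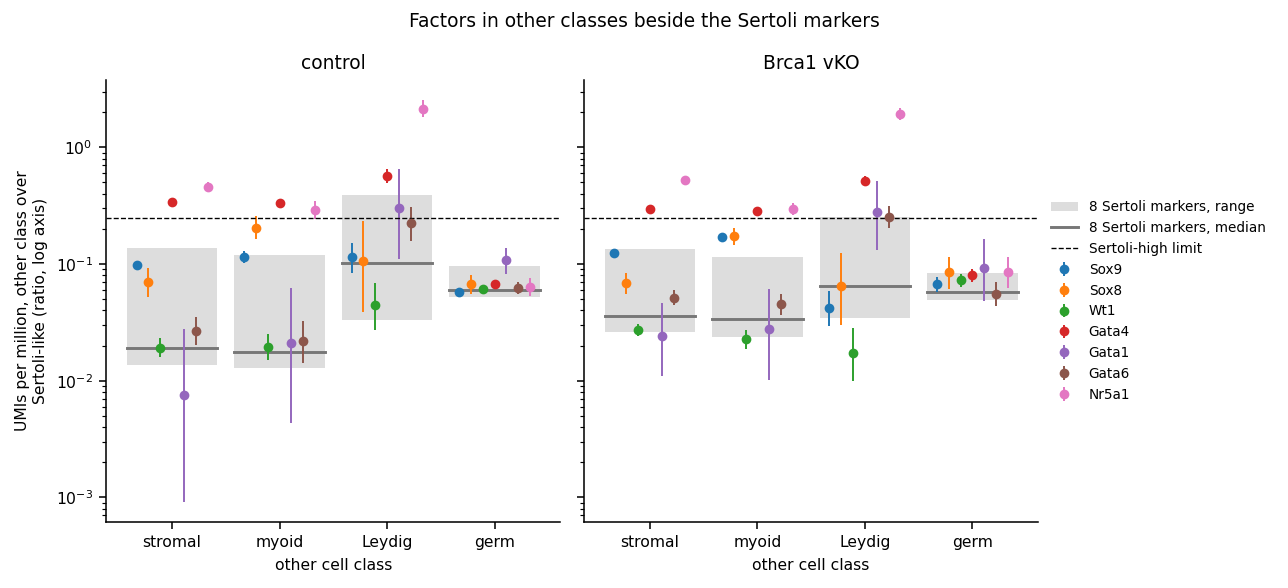
Level in stromal-like, myoid-like, Leydig-like and germ cell-like cells as a fraction of the level in Sertoli-like cells (log axis), for the 7 factors found in Sertoli-like cells beside the range of the 8 Sertoli markers. *Gata4* and *Nr5a1* lay above the marker range in stromal-like and myoid-like cells, whereas *Wt1* lay inside it in stromal-like cells.

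*Tcf21* and *Nr2f2* showed the opposite distribution. *Tcf21* (chr10:22817281-22820174, minus strand), a bHLH factor of interstitial progenitors, stood at 386 (376 to 396) in control and 341 (334 to 349) in *Brca1* vKO stromal-like cells and at 439 and 338 in myoid-like cells. Pericyte-like cells had 192 and 82.2 and Leydig-like cells 67.1 and 76.5. In Sertoli-like cells only 206 and 377 UMIs were found, or 3.81 (3.31 to 4.37) and 3.71 (3.34 to 4.10) CPM. *Tcf21* was thus 101-fold and 92.1-fold lower in Sertoli-like than in stromal-like cells.

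*Nr2f2* (chr7:70351944-70366735, minus strand), a nuclear receptor of mesenchyme and veins, was highest in pericyte-like cells at 751 and 649. It stood at 613 and 526 in stromal-like, 595 and 502 in myoid-like, 272 and 200 in Leydig-like and 117 and 163 in endothelial-like cells. In Sertoli-like cells it had 5.55 (4.94 to 6.21) and 5.29 (4.85 to 5.76), which is 0.00904 and 0.010 of the stromal-like level. The 8 stromal markers, among them *Dcn*, *Pdgfra* and *Col1a1*, stood in Sertoli-like cells at 0.00738 to 0.0114 of their stromal-like level in control and 0.00691 to 0.0129 in *Brca1* vKO. Both factors lay inside the range of these markers. After thinning, 0.501% and 0.578% of Sertoli-like cells had a *Tcf21* UMI and 0.701% and 0.866% an *Nr2f2* UMI, against 48.9% and 47.3% and then 67.1% and 63.7% of stromal-like cells. Before thinning the stromal-like shares were 95% and 92.2% for *Tcf21* and 98.4% and 98.1% for *Nr2f2*.

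The few *Tcf21* and *Nr2f2* UMIs of Sertoli-like cells were unevenly spread. Of the 2014 control cells 70 (3.48%) held the 206 *Tcf21* UMIs, and 10 cells held 53.4% of them. In *Brca1* vKO 244 of 4160 cells (5.87%) held *Tcf21* UMIs, and the 10 richest held 23.9%. *Nr2f2* gave the same picture, with 40.7% of control and 23.4% of *Brca1* vKO UMIs in 10 cells.

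The *Brca1* vKO testis holds few germ cells, and the next comparison asks whether its Sertoli-like cells differed from control in the 9 factors. Cycling and non-cycling cells were kept apart. In non-cycling Sertoli-like cells 2 of the 9 factors, *Tcf21* and *Nr2f2*, differed by more than 1.5-fold, against 6.07% of 13940 genes, and 0 of 9 did so in cycling cells, against 5.81% of 14249 genes. The other 7 factors lay within 1.5-fold in both states.

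*Sox9* was lower in *Brca1* vKO cells, at 327 against 383 CPM in non-cycling cells, a ratio of 0.853 (0.833 to 0.874). In cycling cells it was 322 against 372, a ratio of 0.865. Of all 13940 genes, 12.2% had a lower non-cycling ratio than *Sox9*, so such a ratio was not rare among genes of these libraries. *Wt1* gave 0.894 (0.873 to 0.915) in non-cycling cells, at 367 against 411, and 0.890 in cycling cells, and 17.7% of genes lay lower.

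*Gata1* had the lowest ratio of the 7, at 0.811 (0.721 to 0.914) in non-cycling and 0.760 (0.679 to 0.850) in cycling cells. Its non-cycling levels were 17.1 in control and 13.9 in *Brca1* vKO. *Sox8* lay slightly above 1, at 1.06 (0.991 to 1.12) and 1.10, with non-cycling levels of 53.9 and 56.9. *Gata4* gave 1.02 (0.996 to 1.05) and 1.03, *Gata6* 0.952 (0.916 to 0.989) and 0.995, and *Nr5a1* 0.943 (0.890 to 1.0) and 0.995. The intervals of *Sox9*, *Wt1*, *Gata1* and *Gata6* in non-cycling cells did not reach 1, but they hold no spread between mice, and genotype cannot be told apart from mouse and library.

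Markers of the Sertoli-like cells themselves differed by as much. The summed level of the 8 Sertoli markers was 11680 in control and 12150 in *Brca1* vKO non-cycling cells, with 4 of 8 higher, and single markers ran from 0.751 for *Defb36* to 1.35 for *Hsd17b1*. Stress-response genes stood at 4676 in control and 5905 in *Brca1* vKO non-cycling cells, with 8 of 10 higher. Erythroid genes stood at 900 and 211 and germ cell genes at 15.8 and 5.42. The part of stress, erythroid and germ cell RNA in the ratios of the 7 factors was not tested.

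**Figure D3:**
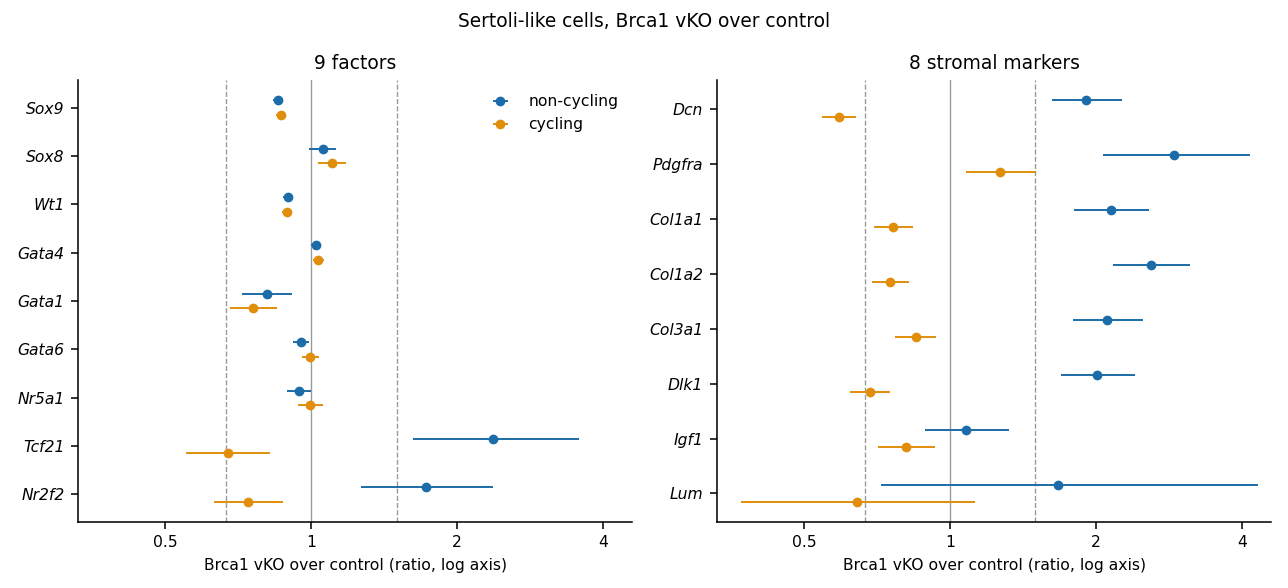
Ratio of *Brca1* vKO to control levels in Sertoli-like cells (log axis) for the 9 factors and for the 8 stromal markers, in non-cycling and cycling cells, with exact 95% intervals for counting error. The dashed lines mark 1.5-fold either way. The 7 factors of Sertoli-like cells lay between them, and *Tcf21* and *Nr2f2* lay on the same sides of 1 as most of the stromal markers.

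*Tcf21* and *Nr2f2* were higher in *Brca1* vKO non-cycling cells and lower in cycling ones, but the direction in cycling cells depended on the processing. In non-cycling Sertoli-like cells *Tcf21* had 34 UMIs in control and 139 in *Brca1* vKO, or 1.20 and 2.85 CPM, a ratio of 2.37 (1.62 to 3.57). *Nr2f2* had 56 and 166 UMIs, or 1.98 and 3.41, a ratio of 1.72 (1.26 to 2.37). In cycling cells *Tcf21* stood at 6.67 and 4.49, a ratio of 0.673 (0.551 to 0.824), and *Nr2f2* at 9.47 and 7.02, a ratio of 0.742 (0.629 to 0.875). The cycling ratio of each stayed below 1 under 7 of 12 alternatives, and without doublets it was 2.16 for *Tcf21* and 1.72 for *Nr2f2*. The stromal markers moved with them: their sum was 37.3 in control and 74.9 in *Brca1* vKO non-cycling Sertoli-like cells, with 8 of 8 higher, and 180 and 134 in cycling cells, with 1 of 8 higher. The part of stromal RNA in the ratios was not tested. The non-cycling count of 2 became 0 at a mitochondrial limit of 5%, with every cluster named and with thinned cells, and *Tcf21* then had ratios of 0.971, 1.17 and 1.40.

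Both factors were also the ones that differed between cycling and non-cycling Sertoli-like cells. *Tcf21* was 5.56-fold (3.83 to 8.28) higher in cycling control cells and 1.58-fold (1.27 to 1.96) higher in cycling *Brca1* vKO cells, and *Nr2f2* was 4.79-fold (3.57 to 6.52) and 2.06-fold (1.71 to 2.49) higher. They were 2 of 9 factors past 1.5-fold in the same direction in both libraries, against 7.40% of 13432 genes. The other 7 lay between 0.915 and 1.16. The 8 stromal markers gave the same cycling to non-cycling ratio of 2.48 to 6.29 (median 5.05) in control and 1.32 to 2.32 (median 1.82) in *Brca1* vKO, which encloses the values of *Tcf21* and *Nr2f2*. Over all genes the median ratio was 1.02 and 1.01. The count of 2 became 0 at a finer clustering, without doublets and with thinned cells.

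A small number of cells carried much of this difference. Sertoli-like cells in which over 0.1% of UMIs came from the stromal markers numbered 23 of 2014 in control and 30 of 4160 in *Brca1* vKO. Without them, an alternative added after seeing the data, *Tcf21* stood at 1.17 and 2.81 in non-cycling and at 1.38 and 2.24 in cycling cells, and *Nr2f2* at 1.56 and 3.35 and at 2.19 and 3.09. Then 0 of 9 factors differed past 1.5-fold with the cell cycle. *Tcf21* and *Nr2f2* still did so with genotype in non-cycling cells, and the ratio in cycling cells turned to 1.62 for *Tcf21* and 1.41 for *Nr2f2*.

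**Figure D4:**
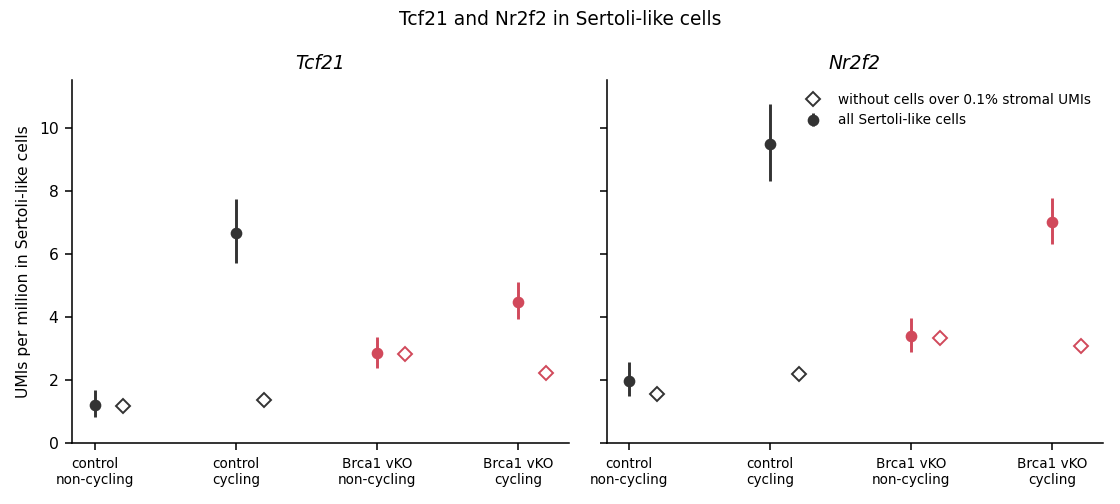
Level of *Tcf21* and *Nr2f2* (CPM) in Sertoli-like cells by library and cell cycle state, with exact 95% Poisson intervals (filled) and without the cells in which over 0.1% of UMIs were stromal markers (open). In the control library the cycling levels were 6.67 and 9.47 with those cells and 1.38 and 2.19 without them.

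Outside Sertoli-like cells the ratios farthest from 1 rested on few UMIs. *Wt1* in neutrophil-like cells had a ratio of 4.30 (2.06 to 10.3) from 8 and 69 UMIs, and *Sox9* in pericyte-like cells 3.26 (1.66 to 6.98) from 11 and 45. *Gata4* in neutrophil-like cells had 2.49 (1.39 to 4.79) from 14 and 70 UMIs. Of these *Brca1* vKO UMIs, 49 of 69, 39 of 45 and 45 of 70 lay in the 5 richest cells. The median fraction of the Sertoli-like level of the 8 Sertoli markers was also higher in *Brca1* vKO. It was 0.0431 and 0.107 in neutrophil-like and 0.0185 and 0.0913 in pericyte-like cells. The part of Sertoli RNA in these 3 ratios was not tested. *Gata6* was higher in *Brca1* vKO stromal-like cells, with a ratio of 1.86 (1.38 to 2.55), and in myoid-like cells, at 2.03 (1.30 to 3.29), from 57 and 190 and from 25 and 97 UMIs. The Sertoli markers moved with it, since their median fraction of the Sertoli-like level was 0.0192 and 0.0357 in stromal-like and 0.0175 and 0.0335 in myoid-like cells. *Gata6*, at 0.0269 and 0.0516 and at 0.0218 and 0.0455, lay within the marker range in each, and the part of Sertoli RNA in its ratio was not tested. In stromal-like, myoid-like and pericyte-like cells *Tcf21* and *Nr2f2* were lower in *Brca1* vKO: *Tcf21* had ratios of 0.885, 0.769 and 0.429, and *Nr2f2* had 0.858, 0.844 and 0.864. In Leydig-like cells *Nr2f2* was lower, at 0.734 (0.635 to 0.851), but *Tcf21* had a ratio of 1.14 (0.867 to 1.52). *Nr2f2* was higher in *Brca1* vKO endothelial-like cells, at 1.39 (1.09 to 1.78), from 103 and 204 UMIs. Leydig-like *Sox9*, at 0.317 (0.198 to 0.504), rested on 47 and 34 UMIs, most of the control ones in 5 cells.

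Partners of these factors, Sertoli genes and reported targets were followed in non-cycling Sertoli-like cells from lists of pathway genes. The 7 cofactors, among them *Zfpm1* and *Zfpm2* (the FOG proteins that bind GATA factors), *Cited2*, *Cbx2* and *Ep300*, all lay within 1.5-fold, with a median ratio of 1.02. *Zfpm1* was itself Sertoli-high, at 78.4 and 84.9 CPM. Of 20 other gonadal factors 9 had enough UMIs, and *Etv5*, an ETS factor of Sertoli cells and spermatogonia, stood alone past 1.5-fold at 1.59 (1.46 to 1.74), with 24.7 in control and 39.4 in *Brca1* vKO. In cycling cells its ratio was 1.34. *Dmrt1*, which keeps the male programme after birth, had a ratio of 0.973.

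Of 14 Sertoli genes and reported targets 12 had enough UMIs, with a median ratio of 1.06. *Cyp26b1*, which breaks down retinoic acid in the fetal testis, stood at 11.0 and 17.0, a ratio of 1.55 (1.36 to 1.77), and at 1.51 in cycling cells. *Vnn1*, a pantetheinase made by Sertoli cells, stood at 77.7 and 30, a ratio of 0.387 (0.362 to 0.413), and at 68.4 and 22.1 in cycling cells, a ratio of 0.323. *Amh*, the hormone that removes the Müllerian ducts, had a ratio of 0.931, with 353 and 329. Of the 12, 6 were Sertoli-high, namely *Amh*, *Inhbb*, *Dhh*, *Fshr*, *Ptgds* and *Cst9*, and their ratios ran from 0.813 for *Ptgds* to 1.13 for *Dhh*. The Sertoli-high count stands beside the 1.81% of all genes given above, and the counts past 1.5-fold beside 6.07%. The list of 14 was picked in part for Sertoli genes, so its Sertoli-high count is no result about targets of the factors.

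**Figure D5:**
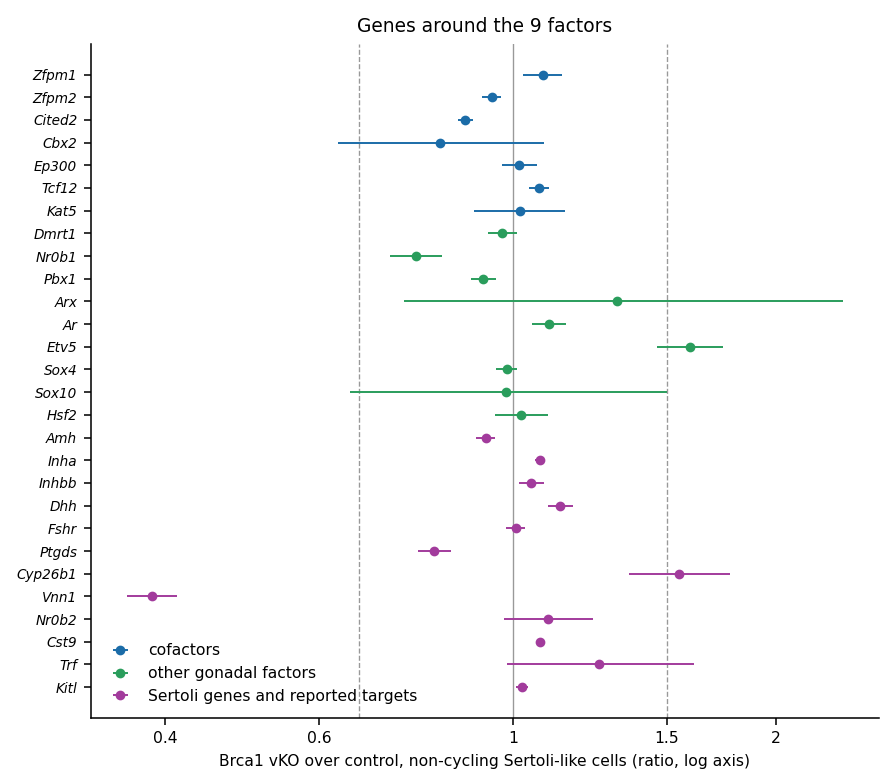
Ratio of *Brca1* vKO to control levels in non-cycling Sertoli-like cells (log axis), with exact 95% intervals. The genes are cofactors, other gonadal factors, and Sertoli genes and reported targets with enough UMIs. *Etv5* and *Cyp26b1* lay above 1.5 and *Vnn1* below, at 0.387.

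The genes whose pattern was most like each factor were found by correlating log levels over 24 sums (classes, libraries and cycle states) for 8080 genes. The sums share libraries and the values are a description. The closest genes were *Socs2* for *Sox9* (Pearson r of 0.965), *Syap1* for *Sox8* (0.952), *Adgrg1* for *Wt1* (0.980), *Zfp275* for *Gata4* (0.962), *Mt3* for *Gata1* (0.967) and *Gstm7* for *Gata6* (0.957). *Amhr2*, the AMH receptor and a Sertoli marker, was among the 3 closest of both *Gata1* and *Gata6*. *Nr5a1* was followed most closely by *Akr1cl* (0.963), *Tcf21* by *Mir100hg* (0.982) and *Nr2f2* by *Hoxd9* (0.986).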

How the data were processed

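The authors aligned the reads with Cell Ranger 6.0.2 to the mm10 reference and deposited raw UMI counts per gene and cell, 1 matrix per genotype, which they analysed with Seurat 4.3.0.1 in R 4.2.3. The matrices held 5812 control and 9456 *Brca1* vKO barcodes with 120568700 and 165062097 UMIs. From these counts, barcodes under 750 genes or over 10% mitochondrial UMIs were dropped. The rest were clustered in Python 3.11.15 with code written for this work, scikit-learn 1.9.0 and igraph 0.11.9. The clustering took 2000 variable genes without the 9 factors, 20 components, a Harmony correction for library, 20 neighbours and Louvain at resolution 0.25. A cluster was named from marker lists, and left unnamed where its marker score was under 0.5, fewer than 3 markers were detected, other classes had more markers than its own among the 10 leading genes, or its UMI count was low. S and G2/M scores from scanpy 1.11.5 gave the cycling cells. Doublets (161 and 249 cells marked by Scrublet) stayed in. UMIs were summed per library, class and state, and a ratio was examined where both sums together held at least 50 UMIs. A class at 0 was set to 3 UMIs. Levels have exact Poisson intervals, ratios exact conditional and shares exact Clopper-Pearson intervals (scipy 1.17.1), all at 95%. The ratio of a factor between classes was also computed for the markers. With 1 library per genotype no test was made. Scripts were tested on simulated data. The text names the 9 factors and the listed genes past 1.5-fold or Sertoli-high. It also names some listed genes as examples, and the closest genes by Pearson r of log2(CPM + 10), for genes reaching 50 CPM. The factors, lists and rules were chosen with earlier results of these data known. In all, 13 alternatives were planned and 2 were added after seeing the data. Promoter windows came from a RefSeq table, without chromosome 18, and are given for 4 of the 9 factors.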

Additional observations from a re-analysis of the deposited data

Results flagged for a closer look

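*Wt1* was also high in an unnamed cluster that none of the comparisons used, with 591 CPM (527 to 659) in its 19 control cells and 535 (456 to 624) in its 8 *Brca1* vKO cells, which is a signal outside the classes described. The cluster was led by *Ecrg4* and *Rmst*, with *Pax8* among its 10 leading genes, and it stayed unnamed. In the same cells *Sox9* stood at 271 and 263, *Gata4* at 179 and 223 and *Gata6* at 191 and 164, while *Gata1* and *Tcf21* had 0 UMIs in both libraries, with upper 95% Poisson limits of 6.89 and 12.1 CPM. What these cells are was not tested.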

How the results depend on the processing

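The design has 1 library per genotype, so no library could be left out, and intervals carry no spread between mice. No paired analysis was possible because each genotype has 1 library. The 7 factors other than *Tcf21* and *Nr2f2* stayed within 1.5-fold over 12 alternatives in both states. The non-cycling ratio ran from 0.820 to 0.878 for *Sox9*, 0.832 to 0.922 for *Wt1*, 0.805 to 1.0 for *Gata1* and 1.01 to 1.08 for *Sox8*. The number of Sertoli-high factors (3) was 1 with classes from each cell's marker scores, 5 at a fold of 3 and 5 with Leydig-like cells left out. With thinned cells *Sox8* had 0 UMIs in control Leydig-like cells, and its fold over the floor of 3 UMIs, a lower bound, was at least 1.57. At the 5% limit the lowest fold of *Gata6* was 10.5, past the rule, and the count was 4. The number past 1.5-fold in non-cycling cells (2) was 0 at a mitochondrial limit of 5%, with every cluster named and with thinned cells. It was 1 with a higher gene minimum per cell, at resolution 0.5, without doublets, with cycling set by 5 genes and at a fold of 2. The number in cycling cells (0) was 2 (both lower) at the 5% limit and with cycling set by 5 genes, 2 (both higher) without doublets, and 1 (higher) without the cells rich in stromal UMIs. The number past 1.5-fold with the cell cycle (2) was 1 at the 5% limit and at a fold of 2, and 0 at resolution 0.5, without doublets, with marker scores, with every cluster named, with thinned cells and without the cells rich in stromal UMIs. Of the 2 ratios past 1.5-fold, each crossed 1 once, *Tcf21* to 0.971 at the 5% limit and *Nr2f2* to 0.845 with thinned cells. In cycling cells, where neither passed 1.5-fold, the ratio kept its side of 1 under 7 of 12 alternatives for *Tcf21* (0.583 to 2.16) and 7 for *Nr2f2* (0.603 to 1.72), 8 for *Gata6*, 9 for *Nr5a1* and 10 for *Gata4*. In non-cycling cells *Gata4*, *Gata1* and *Nr5a1* kept it under 11. The cause was not tested. The few UMIs of *Tcf21* and *Nr2f2* limit these ratios.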

Other observations

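In stromal-like cells *Sox8* was higher in cycling than in non-cycling cells in both libraries, at 6.51 against 2.40 CPM in control, a ratio of 2.71 (1.52 to 4.89), and 7.02 against 2.76 in *Brca1* vKO, a ratio of 2.54 (1.67 to 3.85). These values rest on 28 and 24 UMIs in control and 45 and 53 in *Brca1* vKO. In endothelial-like cells *Tcf21* had 2 UMIs in 27 control cells and 28 UMIs in 36 *Brca1* vKO cells, 25 of the 28 in 10 cells.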
